A study of Rattus norvegicus with 18 samples.

Results

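miR-30a and miR-30d (rno-miR-30a and rno-miR-30d) are guide strands of the miR-30 family of microRNAs, and their tags were counted in the 18 small RNA libraries of developing rat cortex. They were taken as 2 members by name, out of 792 sequences counted: mature rat miRNAs of the RefSeq miRNA table, candidate miRNAs listed by the study, and miR-30d, whose bases were fixed from the study's list of nucleotide changes. To count for a member, a tag had to match it without a mismatch wherever both have bases, to start no more than 3 nt before or after the mature 5′ end, and to stop no more than 3 nt beyond the mature 3′ end. Levels are given in TPM, the reads of a miRNA in 1000000 clean reads of its library.

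The tissue came from Sprague Dawley rats at 8 developmental stages, and the labels name no treatment, allele or transgene for any of them. Forebrain is the labelled tissue at embryonic days 10 and 13 (E10 and E13). The samples of E17, of the day of birth (P0) and of P3, P7, P14 and P28 are labelled as somatosensory cortex, and the study's methods give whole cortex for E10 and E13. Stage and tissue therefore cannot be told apart where E10 or E13 is set against later stages, while the later stages share 1 labelled tissue. P0 had 2 tissue samples and every other stage 1, and each of the 9 tissue samples has 2 libraries labelled as technical replicates, called runs 1 and 2. The runs are technical, so values were averaged over them and each tissue sample was counted once. How many animals gave each sample is not stated in the sources used here. No stage other than P0 has a second tissue sample, and in bulk tissue fewer cells of a type and less RNA per cell cannot be told apart.

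A miRNA is cut from a hairpin precursor as a short duplex, and one strand of it, the guide, is kept by an Argonaute protein and directs it to messenger RNAs. The seed, the bases next to the 5′ end, contributes most to target recognition, so that miRNAs with a common seed can share targets, and a shift of the 5′ end moves the seed while a change at the 3′ end does not. The 3′ ends of mature miRNAs are often heterogeneous, either from where the precursor was cut or from nucleotides added or removed later.

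The guide strands with a RefSeq sequence are shown because the members are told apart by single bases in them. Capitals mark the seed, bases 2 to 8 from the 5′ end.
rno-miR-30a-5p: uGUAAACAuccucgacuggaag
rno-miR-30e-5p: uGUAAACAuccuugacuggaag
rno-miR-30c-5p: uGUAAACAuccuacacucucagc
In the RefSeq assembly GRCr8, miR-30a-5p lies at chr9:33233946-33233967 on the plus strand in the gene Mir30a, and miR-30e-5p at chr5:139637504-139637525 on the minus strand in Mir30e. miR-30c-5p is encoded on both chromosomes, at chr9:33253695-33253717 (Mir30c2, plus strand) and at chr5:139634505-139634527 (Mir30c1, minus strand). miR-30d is named only. Counting from 1 at the 5′ end and writing T for U, it differed from miR-30a over 22 nt by T12C alone, and miR-30e differed from miR-30a by C13T alone, so the 3 miRNAs have the same seed and were separated by 1 base each. No tag of miR-30a, miR-30d or miR-30e fitted a second sequence (0 of their tags).

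Opposite strands of the same hairpins are shown because their seeds differ from that of the guides.
rno-miR-30a-3p: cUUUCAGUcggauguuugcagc
rno-miR-30c-1-3p: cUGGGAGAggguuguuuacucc
rno-miR-30c-2-3p: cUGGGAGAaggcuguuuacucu
Those of the 2 miR-30c hairpins have a common seed.

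The libraries held between 4899010 and 16590379 clean reads. Run 1 held tags of 18 to 30 nt and run 2 tags of 18 to 39 nt. The second run of the E10 sample stood apart in the 3′ ends of miR-30a and miR-30d, and not in these alone: 89.0% of the reads of miR-140-3p in it ended 2 or 3 nt past the mature end, against 4.70% to 23.6% in the other 17 libraries. Of 4 further abundant miRNAs (miR-128-3p, miR-9a-5p, miR-199a-3p and miR-125b-5p), all had shares in this library within the range of the others. Run 1 of the P14 sample stood apart in single-base changes, as given with those results. Run 1 of the second P0 sample and of P3 stood apart in the levels of the members. They had 1465 and 1276 TPM of miR-30a, against 12950 TPM or more in run 1 of the other samples. Where leaving out the E10 sample or its run 2 turned a call on the members, the value without it is given.

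Both miRNAs were abundant at every stage. Over the 9 tissue samples miR-30a averaged 9237 ± 4129 TPM and miR-30d 9408 ± 4574 TPM (SD, n = 9), ranks 17 and 16 among the 792 sequences. The 18 libraries held between 13176 and 194943 reads of each, which gives 95% Wilson intervals of at most 1.71% of the level to either side. These cover no more than counting error and take every read as independent. Because PCR copies of a molecule are counted as separate reads, they can be too narrow even for that.

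The levels followed no steady course over the stages. miR-30a stood at 11857 TPM at E10, 15379 at E13, 10022 at E17, 8305 and 2672 in P0 replicates 1 and 2, 2841 at P3, 10681 at P7, 10836 at P14 and 10539 at P28. miR-30d stood at 7455 TPM at E10, 16179 at E13, 10756 at E17, 8239 and 2092 in the P0 replicates in the same order, 3302 at P3, 12247 at P7, 12089 at P14 and 12313 at P28. In these means E13 was highest for both members, and the second P0 sample and P3 were lowest. That order was the one of run 1. In run 2 both members were highest at E10 (8455 and 9379 TPM), E13 had 6073 TPM of miR-30a and 5061 TPM of miR-30d, and the lowest samples were the first P0 sample for miR-30a (2970 TPM) and the second for miR-30d (2899 TPM).

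The runs set how far these levels can be read. In run 1 the level of miR-30a was 4.99-fold that in run 2 at P14, and miR-30d was 5.39-fold higher in run 1 at E13. In the second P0 sample and at P3 the order was the other way, with miR-30a 2.65-fold and 3.45-fold higher in run 2. The P0 samples gave 5489 ± 3983 TPM for miR-30a and 5165 ± 4347 TPM for miR-30d (SD, n = 2). That SD came largely from run 1. There the P0 replicates had 13640 and 1465 TPM of miR-30a, and in run 2 2970 and 3879. For miR-30d they had 11567 and 1284 TPM in run 1, and 4912 and 2899 in run 2. The SD therefore mixes run and sample differences. Ordered by the mean of the runs, P3 was lowest, then P0, and E13 was highest for both, with E17, P28, P7, P14 and E10 between them for miR-30a and E10, E17, P14, P7 and P28 for miR-30d. Every step between neighbours in these orders was smaller than the SD between the P0 samples, except the step of 4534 TPM from P0 up to E17 for miR-30a. Averaged over samples, log2 TPM was higher in run 1 by 0.86 for miR-30a (7 of 9 samples) and by 0.72 for miR-30d (6 of 9), and neither difference passed the exact sign-flip permutation test (adjusted p = 0.287 and 0.321 over 21 measures).

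**Figure D1:**
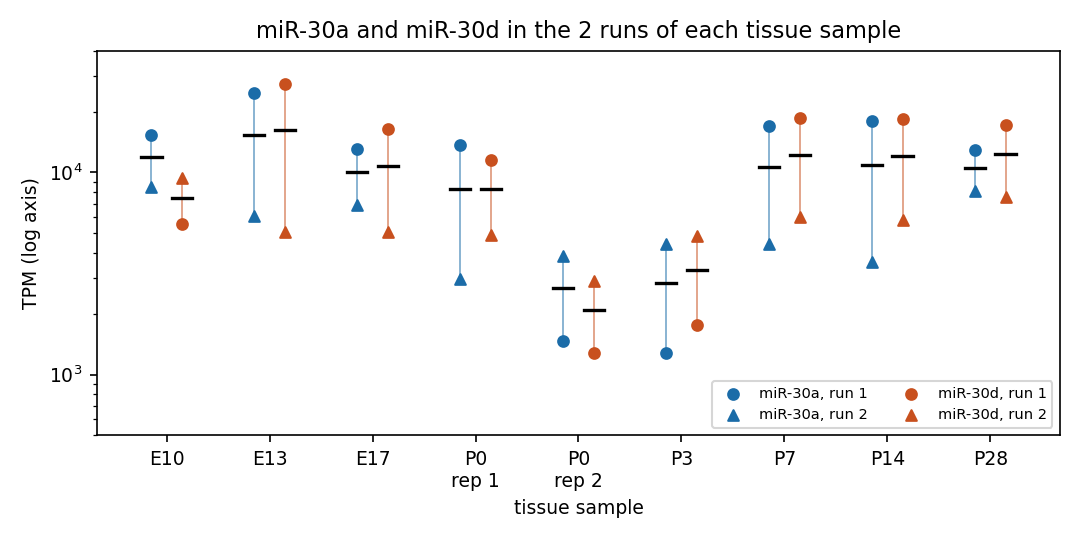
TPM on a log axis in each run (circles, run 1; triangles, run 2) of the 9 tissue samples, with the mean of both runs as a black bar, for miR-30a (blue) and miR-30d (orange). Both members had their highest mean at E13 and their lowest in the second P0 sample, and the runs of 1 sample lay up to 5.39-fold apart.

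A slope of log2 counts on stage order (1 at E10 to 8 at P28) was fitted with edgeR over all sequences with at least 10 counts in 2 or more samples. Of 565 sequences tested, 244 had a slope with an adjusted p under 0.05, which is 43.2% (17.3% rising and 25.8% falling). Neither member was among them. The slope per stage was 0.036 for miR-30a (SE 0.094, unadjusted p = 0.708, adjusted p = 0.771 in edgeR) and 0.11 for miR-30d (SE 0.10, unadjusted p = 0.323, adjusted p = 0.413), beside a median of -0.088 over all sequences. DESeq2 gave adjusted p of 0.665 and 0.357. Within the somatosensory cortex samples alone (E17 to P28) the slopes were 0.0169 and 0.0684, and edgeR called neither. Over 21 alternatives both stayed uncalled, with adjusted p between 0.468 and 0.943 for miR-30a and between 0.217 and 0.953 for miR-30d, but the slope of miR-30a was negative in 4 of them. One was the fit without TMM scaling (slope -0.065). That scaling shifted the median of all sequences to -0.19, and rising sequences were then 19.6% of the calls in place of 40.2%. The others left out E10, took E10 from run 1 alone, or kept only tags seen in both runs. A p above the threshold does not show that the levels were constant.

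miR-30d and miR-30a were about equally abundant. In log2 units the ratio of miR-30d to miR-30a, as the mean of the runs, was -0.66 at E10, -0.06 at E13 and at E17, 0.24 and -0.30 in the P0 replicates, 0.30 at P3, 0.28 at P7, 0.35 at P14 and 0.14 at P28. It was above 0 in 5 of 9 samples and in 11 of 18 libraries. The mean was 0.027 ± 0.34 (SD, n = 9), with p = 0.820 in the exact sign-flip permutation test (adjusted p = 0.820 over 10 measures, the smallest p possible being 0.00391).

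The ratio was not stable between runs of 1 sample. Its sign was the same in both runs in 4 of 9 samples, and the runs of a sample were apart by 0.64 log2 units on average, against an SD of 0.34 over samples. At E10, run 1 had -1.46 and run 2 0.15. For the first P0 sample, the runs gave -0.24 and 0.73.

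The samples from P3 on all had mean ratios above 0, and E10 had the lowest. Across stage order the Pearson correlation was 0.737 (exact permutation p = 0.0220, adjusted 0.139 over 19 measures) and the Spearman correlation 0.720 (exact permutation p = 0.0338, adjusted 0.214), so neither passed after adjustment. Without the samples at the ends, E10 and P28, Pearson's r was 0.692. Within run 1 alone r was 0.592, and within run 2 alone 0.332 (exact permutation p = 0.0828 and 0.374). Without E10 it was 0.576, with E10 from run 1 alone 0.701, in the somatosensory cortex samples only 0.516, and with only tags identical to the mature form 0.114.

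**Figure D2:**
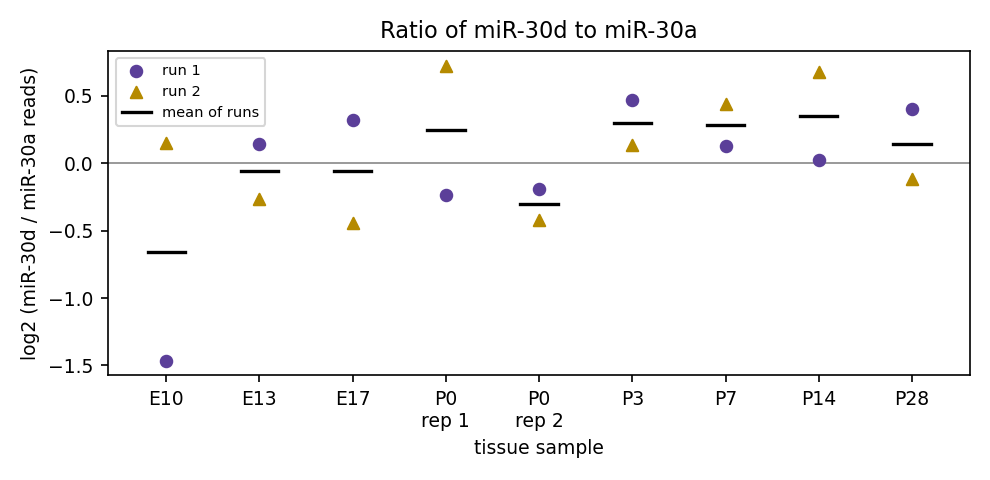
log2 ratio of miR-30d to miR-30a reads in run 1 (circles) and run 2 (triangles) of each tissue sample, with the mean of both runs as a bar. The grey line marks equal levels, and the runs fell on opposite sides of it in 5 of 9 samples.

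The choice of tags decides which member is counted as more abundant. With only tags identical to the 22 nt form, the mean log2 ratio was -2.36 (exact sign-flip permutation p = 0.00391). For miR-30d that form is an assumption, its 3′ end having been set at 22 nt as in miR-30a, and the ratio under this setting depends on it. The 3′ ends given next show what that setting leaves out.

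The most frequent end of miR-30a was 1 nt past the 22 nt mature form, and that of miR-30d 2 nt past it. By library, the peak was at 23 nt for miR-30a in 15 of 18 and at 24 nt for miR-30d in 17 of 18. For miR-30d the mature 3′ end means this assumed 22 nt end, so its classes are positions counted from the end of miR-30a. Reads with the mature 3′ end made up 27.7% ± 8.44 of miR-30a and 5.48% ± 2.22 of miR-30d (SD, n = 9). Reads 1 nt longer made up 43.8% ± 6.94 of miR-30a and 33.5% ± 6.28 of miR-30d, and reads 2 nt longer 22.5% ± 12.3 and 57.5% ± 7.26 (SD, n = 9).

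The share 2 nt longer separated the members in every tissue sample. For miR-30a it was 53.6% at E10, 22.2% at E13, 22.1% at E17, 13.4% and 15.8% in the P0 replicates, 17.3% at P3, 17.0% at P7, 16.1% at P14 and 25.2% at P28. In miR-30d the shares, in the same order, were 71.7%, 59.3%, 59.7%, 44.4%, 56.1%, 54.8%, 55.3%, 54.6% and 61.7%. The difference was 35.0 percentage points (SD 6.85, higher in miR-30d in 9 of 9 samples, exact sign-flip permutation p = 0.00391, adjusted 0.00781 over 10 measures).

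The separation held in 17 of 18 libraries. Run 2 of E10 was the exception, with 84.9% in miR-30a and 83.1% in miR-30d. In the other 17 libraries miR-30a reached at most 34.3%, and the lowest share of miR-30d in any library was 41.4%, so that the members did not overlap outside run 2 of E10. Without E10 the difference was 37.1 percentage points.

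Shorter ends were rarer in miR-30d. The mature end was lower in miR-30d by 22.3 percentage points (SD 6.48, lower in 9 of 9 samples and 18 of 18 libraries, exact sign-flip permutation p = 0.00391, adjusted 0.00781). Reads 1 nt longer differed by -10.2 percentage points (SD 6.63, adjusted p = 0.0112 by the same exact permutation test), with 1 of 9 samples the other way, and by -6.03 in run 1 alone, where the test was not passed. Ends 1, 2 and 3 or more nt short of the mature end together made up less than 5% of either member, and each class was lower in miR-30d, with 2.31% against 1.43%, 0.975% against 0.239% and 1.19% against 0.450% (adjusted p of the exact permutation test 0.0112, 0.00781 and 0.00781). The class 1 nt shorter did not pass in run 2 alone (a difference of -0.354), and the class 3 or more nt shorter did not pass among tags of at least 20 nt (a difference of -0.00104, adjusted p = 0.205, exact permutation), a length limit that removes most of that class. Reads 3 nt longer, 1.51% of miR-30a and 1.35% of miR-30d, did not pass over all 9 samples (adjusted p = 0.391, exact permutation). This call turned on E10. Without it the shares were 1.18% and 0.862%, and the difference of -0.317 passed (lower in miR-30d in 8 of 8 samples, adjusted p = 0.0130, exact permutation). In the runs taken alone the difference had opposite signs (-0.763 in run 1, 0.436 in run 2).

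**Figure D3:**
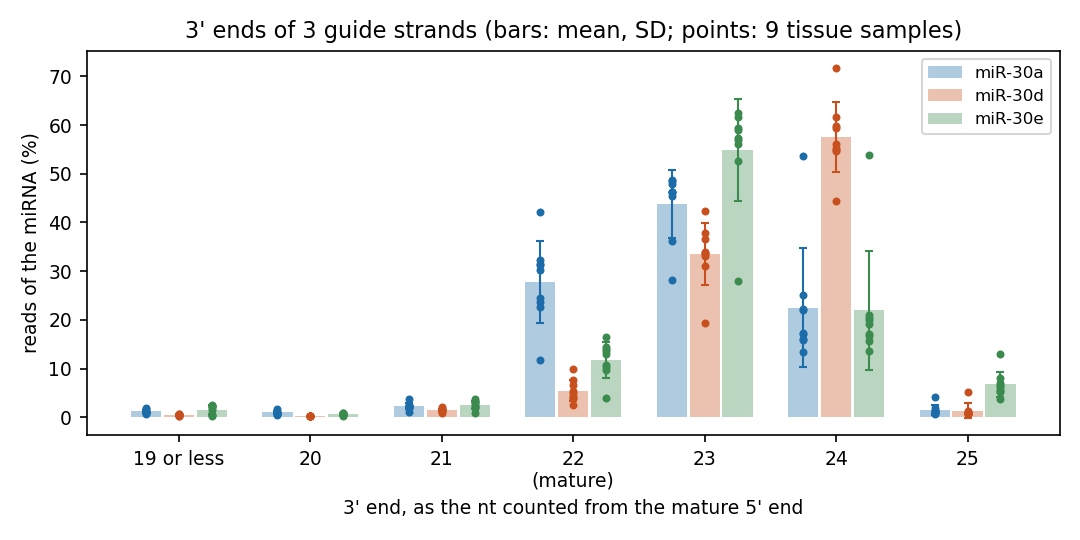
Share of reads (%) by 3′ end, counted in nt from the mature 5′ end, for miR-30a (blue), miR-30d (orange) and miR-30e (green). Bars are means over 9 tissue samples with the SD, and points are the samples. miR-30d peaked at 24 nt, and miR-30a and miR-30e at 23 nt.

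miR-30e, which differs from miR-30a at position 13, had fewer reads 2 nt longer than miR-30d in both runs, and stood above or below miR-30a depending on the run. Of its reads, 21.95% were 2 nt longer than the mature form, a difference of -35.6 percentage points from miR-30d (lower in 9 of 9 samples, adjusted p = 0.00547 by the exact sign-flip permutation test over 7 comparisons chosen after the values were seen). Against miR-30a the difference was -0.569 percentage points (SD 4.70, 4 of 9 samples higher, adjusted p = 0.730 in the same exact permutation test). That value averages opposite runs. In run 1 miR-30e had 15.0% against 23.4% in miR-30a (lower in 6 of 9 samples, exact permutation p = 0.0547), and in run 2 28.9% against 21.7% (higher in 8 of 9, exact permutation p = 0.0234). The difference from miR-30d was -39.5 in run 1 and -31.6 in run 2, and without E10 -37.8. The mature end made up 11.8% of miR-30e, between 5.48% in miR-30d and 27.7% in miR-30a, and 6.75% of miR-30e was 3 nt longer, above both members.

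The letters past the mature end were mostly those of the miR-30a hairpin, which continues with c, then t, then g. Among reads 1 nt longer, c was the added letter in 98.7% ± 0.814 for miR-30a and 97.3% ± 1.46 for miR-30d. Among reads 2 nt longer, ct was found in 89.6% ± 6.01 for miR-30a and 97.0% ± 1.12 for miR-30d (SD, n = 9). The hairpin of miR-30d was not used here, so its letters were compared with those of miR-30a only.

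Letters other than those of the hairpin were most frequent in the longest counted tags. The letters ca, in which the second differs from the hairpin, made up 9.12% of the reads 2 nt longer for miR-30a and 2.19% for miR-30d, a difference of -6.94 percentage points (SD 4.73, lower in miR-30d in 9 of 9 samples, adjusted p = 0.00547 by the exact permutation test over the 7 added comparisons). As a share of reads 3 nt longer, ctg, the hairpin's letters, was 0.319% in miR-30a and 0.356% in miR-30d. There cta (37.8% and 50.02%) and ctt (28.8% and 23.3%) prevailed. Beyond the 3 nt limit, tags that began with the whole mature sequence came to 2.33% of the counted reads for miR-30a and 4.79% for miR-30d. For miR-30e they came to 15.5%, so its end shares leave out more long tags than those of the members.

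No 3′ end class of either member passed a test against stage order. None of the 14 passed the exact permutation test of its correlation with stage. The share 2 nt longer had r = -0.520 in miR-30a and -0.355 in miR-30d (adjusted exact permutation p = 0.436 and 0.476), and without E10 these were 0.0575 and 0.0998. Between runs, 4 of 21 measures passed. For miR-30d the share 1 nt longer was higher in run 1 (38.6% against 28.4%, 9 of 9 samples), the share 3 nt longer was higher in run 2 (0.657% against 2.04%, 9 of 9) and the 5′ shift was higher in run 1. In miR-30a the share 1 nt shorter was higher in run 1 (2.88% against 1.73%, 8 of 9). Each had an adjusted p of 0.0410 by the exact permutation test. The count changed with the samples used. Without E10, 8 measures passed, the same 4 and, by the exact permutation test, also the shares 2 nt longer (23.5% in run 1 against 13.8% in run 2, adjusted p = 0.0328) and 3 nt longer (1.46% against 0.901%, adjusted p = 0.0410) of miR-30a and the shares 2 nt shorter (0.180% against 0.312%) and at the mature end (4.25% against 7.44%) of miR-30d (adjusted p = 0.0328 each). Without any 1 of the other samples 0 passed. The smallest p possible with 8 samples is 0.00781, so these counts say nothing of stability. Leaving out 1 sample kept the direction of the first 4, but the share 3 nt longer rested largely on E10, its run difference going from -1.39 to -0.46 percentage points without it.

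The 5′ ends, and with them the seeds, were nearly uniform. Reads with a shifted 5′ end made up 0.784% ± 0.372 of miR-30a and 1.15% ± 0.551 of miR-30d (SD, n = 9). Most lacked the first base, 0.625% of miR-30a and 1.03% of miR-30d, and 0.127% and 0.0951% began 1 nt earlier. Over the mean of the runs the shift was more frequent in miR-30d in 9 of 9 samples (0.370 percentage points, exact sign-flip permutation p = 0.00391, adjusted 0.00781).

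The direction was that of run 1. In run 2 alone the shift was less frequent in miR-30d, by 0.226 percentage points on average (exact sign-flip permutation p = 0.00391), so no order of the members can be read from it. The highest share in a library was 3.59%, for miR-30d in run 1 of the second P0 sample, followed by 3.26% for miR-30d in run 1 of P3. miR-30e was shifted more often than either member, at 7.72% ± 3.36 (higher in 9 of 9 samples against each, adjusted p = 0.00547, exact permutation, among the comparisons chosen after the values were seen). Its highest shares were in the same libraries, 24.4% in run 1 of the second P0 sample and 19.3% in run 1 of P3.

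The T12C tag of miR-30a, read as a change of that miRNA, is the sequence of miR-30d. Among reads with the mature 5′ end that were either unchanged or T12C, the tag made up 50.5% ± 5.52 over the 9 samples (lowest 39.6% at E10, median 52.4%, highest 55.9% at P14). Its reads numbered 1664751. At the 3 other T positions of miR-30a from 2 to 19, T-to-C changes made up 0.0413% to 0.0914%, so that T12C was 552-fold above the highest of them. C13T, the tag that is miR-30e, made up 11.3% ± 3.59 (lowest 8.17%, highest 18.3%).

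**Figure D4:**
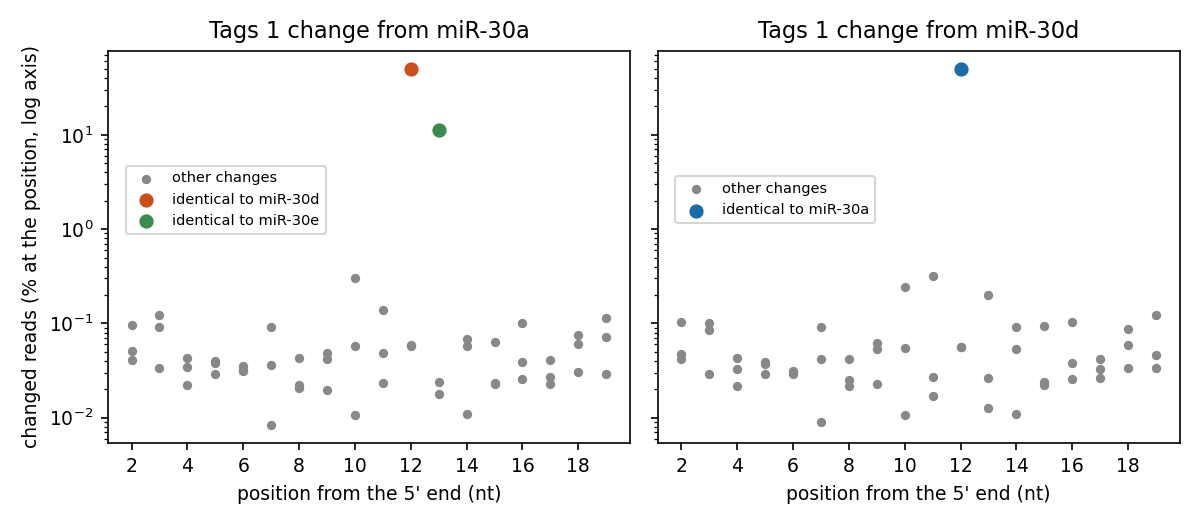
Share of reads (%, log axis) with each single-base change from miR-30a (left) and from miR-30d (right), by position from the 5′ end, as the mean of 9 tissue samples. Tags identical to another member of the family stand at 50.5% (miR-30d) and 11.3% (miR-30e) on the left and at 49.5% (C12T, which is miR-30a) on the right, and all other changes lie at or below 0.316%.

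All 52 other changes of miR-30a were at or below 0.300%, and all 53 of miR-30d at or below 0.316%. The most frequent of them was a C-to-T change in both, C10T in miR-30a (0.300%) and C11T in miR-30d (0.316%). C10T was 0.245% in miR-30d, and C11T 0.140% in miR-30a. C11T was higher in miR-30d in 9 of 9 samples and C10T lower in 8 of 9 (adjusted p = 0.00547 and 0.00911, exact sign-flip permutation, chosen after the values were seen).

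These changes came mainly from 1 run. C10T of miR-30a lay between 0.0538% and 0.182% in run 1 and between 0.180% and 0.851% in run 2, higher in run 2 in 9 of 9 samples. For C11T of miR-30d the ranges were 0.0742% to 0.196% and 0.219% to 0.943%, again higher in run 2 in 9 of 9. A tag with C13T in miR-30d, 0.201% of reads, is also 1 change from miR-30e, and T12A and T12G of miR-30a are the same tags as C12A and C12G of miR-30d, so these cannot be assigned. A-to-G changes, the kind that deamination of adenosine gives, lay between 0.0234% and 0.0435% over the 5 A positions of miR-30a and between 0.0236% and 0.0434% in miR-30d.

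Summed over positions 2 to 19 without 12 and 13, single-base changes rose with stage in both members by rank. The share in miR-30a was 1.68% at E10, 1.69% at E13, 1.97% at E17, 2.14% and 2.58% in the P0 replicates, 2.14% at P3, 2.99% at P7, 4.16% at P14 and 2.88% at P28. For miR-30d it was 1.75%, 1.83%, 2.09%, 2.40%, 2.73%, 2.30%, 3.10%, 4.51% and 2.81% in that order. P14 was highest in both, and its run 1 alone had 6.01% and 6.597%, against 2.32% and 2.43% in its run 2.

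The Spearman correlation with stage order was 0.921 for miR-30a and 0.895 for miR-30d (exact permutation p = 0.000981 and 0.00211), and both passed after adjustment over 19 measures. Pearson's r was 0.815 and 0.764 and did not pass (exact permutation p = 0.00514 and 0.0107, adjusted 0.0976 and 0.102), and without E10 and P28 it was 0.892 and 0.883. Within run 1 alone r was 0.671 and 0.610, and within run 2 alone 0.749 and 0.683. Without P14, r was 0.885 and 0.847, and without E10 0.789 and 0.717. In the somatosensory cortex samples alone, where stage is not mixed with the labelled tissue, r was 0.725 and 0.635 and did not pass (exact permutation p = 0.0520 and 0.110, adjusted 0.809 for both).

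The same measure moved with stage in miRNAs outside the family. In the 5 most abundant miRNAs with no close relative in the table (miR-128-3p, miR-9a-5p, miR-140-3p, miR-199a-3p and miR-125b-5p), chosen after the result was seen, Pearson's r was between 0.757 and 0.880, all 5 passed (adjusted p of at most 0.0165, exact permutation), and P14 was highest in each. As in the members, P14 was highest through its run 1 (6.43% to 7.79%); in run 2 it had 2.28% to 2.74% and was highest in 0 of 5. Within run 1 alone r lay between 0.487 and 0.697, and within run 2 alone between 0.510 and 0.876. These libraries are the same ones, so the 7 correlations are not independent.

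**Figure D5:**
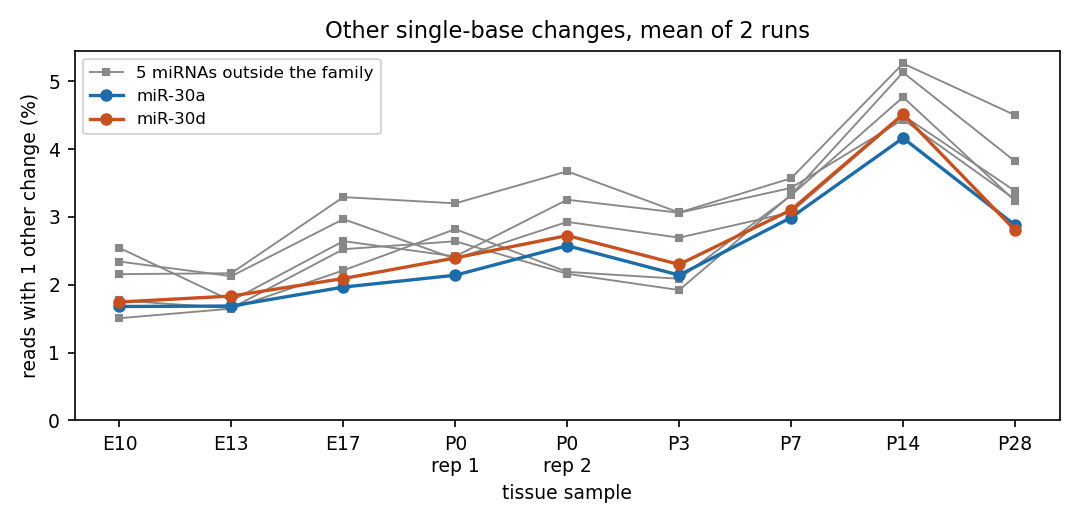
Share of reads (%) with 1 other base change at positions 2 to 19 without 12 and 13, as the mean of 2 runs, in each tissue sample. miR-30a (blue) and miR-30d (orange) follow the 5 miRNAs outside the family (grey), with the highest value at P14 in each.

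miR-30d had slightly more of these changes than miR-30a, 2.61% against 2.47%. The difference was 0.143 percentage points (SD 0.117, higher in 8 of 9 samples, exact sign-flip permutation p = 0.0117, adjusted 0.0146). In run 1 alone it was 0.0706 and did not pass (adjusted p = 0.530, exact permutation).

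The miR-30 family list held 9 other strands, of which 5 were counted: the guides miR-30e-5p and miR-30c-5p and the opposite strands miR-30a-3p, miR-30c-1-3p and miR-30c-2-3p. miR-30b-5p, miR-30b-3p, miR-30d* and miR-30e* are named only. None of the 5 was called by edgeR for a slope on stage order (0 rising and 0 falling, beside the 43.2% called over all sequences), 0 of 5 had an unadjusted p under 0.05, and DESeq2 called 0. Their median slope was 0.013, beside -0.088 for all sequences. With identical tags only, 1 of 4 tested (miR-30c-2-3p) was called as falling, beside 178 of 425 sequences called under that setting (41.9%, with 27.1% falling).

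miR-30a and miR-30d made up most of the counted guides. Of the 4 guides, miR-30a made up between 42.2% (P3) and 52.7% (E10) and miR-30d between 33.2% (E10) and 50.02% (P28), and the P0 samples had 44.7% and 50.4% of miR-30a beside 44.3% and 39.4% of miR-30d. The order at E10 turned between runs, as given with the ratio. miR-30e averaged 1112 ± 569 TPM and miR-30c-5p 537 ± 258 TPM (SD, n = 9). miR-30e was highest at E10, with 10.0% of the guides there and 3.63% at P14.

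The opposite strand of the miR-30a hairpin was far less abundant than the guide. miR-30a-3p averaged 114 ± 38.5 TPM (SD, n = 9), and the guide was 25.9-fold (second P0 sample) to 215-fold (P7) more abundant, with a median of 73.7-fold, from the means of the runs. The runs differed widely. In run 1 the fold lay between 13.9 (second P0 sample) and 824 (P7), and in run 2 between 20.8 (first P0 sample) and 56.1 (P7). The second P0 sample and P3 stood apart in run 1, with 13.9 and 15.3, while the other samples had 122 to 824 there. miR-30c-1-3p averaged 48.7 ± 11.8 TPM and miR-30c-2-3p 693 ± 456 TPM, with its highest mean, 1790 TPM, at E13. That peak was in run 1 (3156 TPM), and in run 2 E13 had 425 TPM and E17, the highest, 563 TPM. The names guide and opposite strand follow the 5p and 3p arms, but by the mean of the runs miR-30c-2-3p was more abundant than miR-30c-5p, which comes from both miR-30c hairpins, in 7 of 9 samples and not at E10 and P7. In run 2 alone the order of their averages was the other way, with 326 TPM of miR-30c-2-3p and 397 TPM of miR-30c-5p. Yet miR-30c-2-3p was higher there in 5 of 9 samples. Run 2 of E10, which stood apart in 3′ ends, had 192 TPM of miR-30c-2-3p and 1326 TPM of miR-30c-5p.

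Across the 9 samples, which share library and depth between miRNAs, log2 (TPM + 1) of miR-30a had Pearson's r of 0.951 with miR-30d, 0.947 with miR-30c-5p, 0.885 with miR-30e and 0.126 with miR-30a-3p. Outside the family, among 188 sequences with a mean of at least 50 TPM, miR-191a-5p was most like both members (r = 0.927 with miR-30a and 0.944 with miR-30d). It ranged from 3652 to 9127 TPM. For miR-30a, miR-344-3p (0.905) and miR-412-5p (0.884) came next, and for miR-30d miR-485-3p (0.927) and miR-499-5p (0.908). These correlations are descriptions over 9 points. Within the family, r of miR-30a with miR-30d was 0.933 in run 1 and 0.619 in run 2, with miR-30c-5p 0.942 and 0.751, with miR-30e 0.981 and 0.576, and with miR-30a-3p -0.303 and 0.741. For the 6 correlations outside the family, r in run 2 alone was between 0.190 and 0.675, against 0.868 to 0.962 in run 1 alone.

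Markers of neural and of other cells moved strongly over the same samples. miR-9a-5p, a neural miRNA, was highest at E10 (66760 TPM) and lowest at P28 (11234), and did not fall steadily (18635 at E13, 33291 at E17). miR-124, a second neural miRNA on the marker list, was not among the 565 sequences tested, so it has no level here. The study lists it among its most abundant miRNAs at every stage, with a higher rank at P0 than at E10. miR-219a-2-3p, of oligodendrocytes, went from 6.30 TPM in the second P0 sample to 10432 at P28. miR-451-5p, of blood, was highest at E10 (1049 TPM, lowest 30.4 at P7), as was miR-144-3p (93.2 TPM, lowest 0.457 at P14). miR-199a-3p, of mesenchymal cells, was highest at E13 (40984 TPM, lowest 228 in the first P0 sample); the members had their highest means at that stage, though not in run 2. The part of other cells in the levels of miR-30a and miR-30d was not tested.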

How the data were processed

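Small RNA of 9 rat tissue samples was sequenced in 2 runs each. The authors trimmed adaptors, removed low quality reads and contaminants, collapsed identical reads and deposited the length of each unique tag and its read count in a library, with no normalization; they mapped tags to rn4 in separate steps not used here. The totals were 4899010 to 16590379 reads. Sequences came from RefSeq (692 mature miRNAs, assembly GRCr8) and from the study's list of 101 candidates. The study's list of nucleotide changes gives 16 bases (positions 5 to 20) of each member; the tags filled the rest, with 98.7% of fitting reads in 1 sequence. The result for miR-30a equalled RefSeq. The end of miR-30a at 22 nt was used for miR-30d. A tag that fitted several sequences was counted for each (2.07% of reads, none of miR-30a, miR-30d or miR-30e).

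Counts were summed over runs and fitted in edgeR 4.0.16 (R 4.3.3; TMM, quasi-likelihood test of the slope on stage order, at least 10 counts in 2 samples, Benjamini-Hochberg over 565 sequences, threshold 0.05). DESeq2 1.42.0 was an alternative. Shares and ratios were compared by exact sign-flip and exact permutation tests, two-sided, adjusted within each family (10, 19 and 21 measures), in Python 3.11.15 with numpy 2.4.6 and scipy 1.17.1. Single-base changes were taken at positions 2 to 19 in tags with the mature 5′ end; sums left out positions 12 and 13. Named were the members, the family list and, per member, the 3 other sequences of at least 50 TPM most like it. Added after the data were seen were 7 comparisons of ends and changes, the 5 miRNAs outside the family (no other sequence within 3 mismatches), E10 from run 1 alone, miR-30e without E10 and by run, and run values of strand folds, family correlations and outside miRNAs. Tools were tested on simulated data. The members and lists were chosen with earlier results of these data known. p-values for stages rest on the spread between single samples, 1 per stage except P0.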

Additional observations from a re-analysis of the deposited data

How the results depend on the processing

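Of 367 values of 25 results recomputed under alternatives, 322 kept their direction and their side of the threshold, or for counts stayed within 1.5 times. The slope of miR-30a was -0.065 without TMM, -0.00997 with tags seen in both runs, -0.0073 with E10 from run 1 alone (chosen after seeing the data) and between -0.0328 (without E10) and 0.0811 (without E13) when each sample was left out; that of miR-30d was then between 0.01 and 0.17. With the technical replicate number as a replicate block over 18 libraries, the slopes were 0.05 and 0.13, and neither was called. This fit counts each tissue sample in 2 libraries, so its 345 calls cannot be compared with those of the main fit. Run differences correlated over 0.1 in 35 of 36 pairs of samples (median r 0.361, lowest 0.0763), so the runs differed in a partly shared way. The run tests pair the runs by number, and the main fit sums them. The block changed no call of the miR-30 family. Run 1 alone gave 128 calls and leaving out samples 174 to 269. Identical tags alone called 1 of 4 other family strands, beside 41.9% of all sequences, and leaving out samples called 0. The mean log2 ratio of the members was -2.36 with identical tags, -0.0445 in run 1, -0.0626 with E10 from run 1 alone and -0.0136 to 0.11 with samples left out, the sign turning without P0 replicate 1 (-6.7e-05), P3, P7 or P14. The end difference 2 nt past the mature end passed in every alternative, 34.3 to 37.1 points with samples left out. The ratio's correlation with stage was 0.576 to 0.818 with samples left out, 0.516 in cortex samples only and 0.114 with identical tags. In run 2 alone the differences of the 3 nt longer and 5′ shifted shares turned to 0.436 and -0.226, and without E10 the former passed at -0.317, giving 9 end measures past the threshold against 8. The difference in other single-base changes was 0.0706 in run 1. Correlations of the 2 nt longer share with stage turned to 0.00421 in miR-30a (run 1) and to 0.344 and 0.325 in cortex samples only, and without E10 to 0.0575 and 0.0998 (lowest -0.699 and -0.604, without P28). Correlations of other changes with stage passed by Pearson's r for both members, 2 measures against 0, with tags seen in both runs (0.912 and 0.824) and without P28 (0.880 and 0.880), and not in cortex samples only (0.725 and 0.635). Of run differences, 8 passed without E10 and 0 without any other sample, but with 8 samples the smallest possible p is 0.00781, so these counts say nothing of stability; the ratio's run difference turned to 0.0407 without E10 (lowest -0.26, without E17), and with identical tags that of miR-30d turned to -7.6e-04 and that of the ratio to -0.84. For all other changes named here the cause was not tested. The Wilson intervals of the members were at most 1.71% of the level to either side, while the runs of a sample lay up to 5.39-fold apart. In every tissue sample run 1 held fewer clean reads than run 2, so run and depth cannot be told apart. Every stage but P0 had 1 tissue sample.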
